A study of Mus musculus with 6 samples.

Results

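The circRNA described here come from mouse genes that carried a provisional name in the annotation used for the deposited table. A gene name was taken as provisional where it was Gm followed by a number, the form given to gene models predicted from the genome sequence, or where it ended in Rik, the form given to cDNA clones of the RIKEN collection. A circRNA was a member when every gene it names has such a name. Of 42381 circRNA in the table, 903 were members, and they belonged to 239 gene entries of 7843. The 239 entries held 244 names, because 9 entries join several names, and 32 entries held Gm names alone while 207 held a Rik name. A further 553 circRNA that name a provisional gene together with another gene were left out.

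The cells were mural granulosa cells, which form the inner lining of the follicle wall in the ovary, from wild-type CF-1 female mice. All mice were 21 days old and received 5 IU of PMSG (eCG), which drives follicle growth. One group was collected 46 h after PMSG without further treatment (0-h, n = 3 mice). The other received 5 IU of hCG, by the labels 46 h after PMSG, and was collected 4 h later (4-h post-hCG, n = 3 mice). This hormone binds the LH receptor and stands in for the surge that triggers ovulation. Time since PMSG thus differs between the groups along with hCG, and their effects cannot be told apart. The cells were expelled by puncture of preovulatory follicles, with oocytes and cumulus complexes discarded, so the cells are selected by follicle stage and not by a marker.

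A circRNA forms when the spliceosome joins the end of an exon to the start of the same or an upstream exon, a reaction called back splicing. The product has no free ends and no poly(A) tail, and it is recognised in sequencing reads by the back-splice junction, which the linear transcript of the same gene does not contain. Provisional names say when and how a gene was first catalogued and not what it encodes, and many of these loci have since received a functional gene symbol.

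Each library held between 119094 and 163145 back-splice reads at gene-assigned junctions, of which 908 to 1327 fell on members. Across the 6 libraries, circular counts of abundant circRNA correlated between replicates of a group at 0.726 to 0.817 and linear counts at 0.963 to 0.973 (Pearson, across circRNA on a log scale). Of 16 listed genes that respond to LH, 9 had a circRNA and could be read in the linear counts, and all 9 were higher at 4-h post-hCG (median log2 fold change 4.27). Of 10 listed granulosa genes 7 could be read, 1 higher and 4 lower, with a median log2 fold change of -0.97. The 4 were Fshr (-1.38), Cyp19a1 (-0.97), Esr2 (-1.30) and Hsd17b1 (-1.48). The list summed to between 7222 and 9936 linear CPM (counts scaled to a common library size) before hCG, and to between 7317 and 7745 after it. Marker lists of oocyte, theca, immune, endothelial and stromal cells summed to at most 152 CPM in any library, from 1 or 2 readable genes each. The linear counts cover genes with a circRNA only, so a marker without one has no value here. Fewer cells of a type and less RNA per cell cannot be told apart in these bulk libraries.

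Most of the provisional names now belong to known genes. RefSeq on the same build (GRCm38.p6) matched 234 of the 244 names and gave 145 of them another symbol. The matched names were 202 protein-coding genes, 25 long noncoding RNA (lncRNA) genes, 6 pseudogenes and 1 other RNA. Of the 40 Gm names 34 were matched, 21 of them to protein-coding genes, 7 to lncRNA genes and 6 to pseudogenes. Of the 204 Rik names 200 were matched, 181 to protein-coding genes and 18 to lncRNA genes. A testis origin shows in 49 of the Rik names, which carry the clone prefix of a RIKEN library from that organ, and their 173 circRNA held 925 reads in all.

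Back-splice reads on members were few. The 903 members held 6575 reads over the 6 libraries, with a median of 2 reads per circRNA beside 3 for the other 41478 circRNA. Of the members 291 (32.2%) were seen by 1 read and 566 (62.7%) in 1 library, beside 30.6% and 57.8% of the other circRNA. Reads at both times were found for 282 members, at 0-h alone for 355 and at 4-h post-hCG alone for 266, and the highest total among members read at 1 time alone was 10 reads at 0-h and 11 at 4-h post-hCG. No such member had enough reads for a comparison between the groups.

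In all, 29 members (3.21%), from 24 gene entries, reached at least 100 CPM over circRNA reads in at least 3 libraries, which here meant 6.60 to 9.19 reads, and are called abundant below. The share among the other circRNA was 3.93%. The 29 abundant members held 43.9% of all member reads, and the top 10 alone held 27.6%. Of the 29, 28 came from entries with a Rik name and 1 from an entry with a Gm name, Gm608. Among all 1658 abundant circRNA, the highest-ranked member stood at place 123.

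The back-splice junctions of 9 members on which the results below turn are printed here in the sense of the transcript (GRCm38). Lower-case letters are the last 15 bases of the last exon of the circle and capitals the first 15 bases of its first exon, so the joint between the cases is the back splice. The first 3 show how circles of one gene share an end, the next 2 come from related genes, and the last 4 are the members with the most extreme values or the highest read counts.
A930001N09Rik (Crebrf) exons 3 to 4: cgttctctgaaccagCCCAGCGTAAGCGGA
A930001N09Rik (Crebrf) exons 2 to 4: cgttctctgaaccagAACCGCAAATTTATT
A930001N09Rik (Crebrf) exons 3 to 8: ttaaagatacactggCCCAGCGTAAGCGGA
9830001H06Rik (Soga1) exons 2 to 3: gatcgtcccagagagGATGAGATTGAGGAG
1110012J17Rik (Mtcl1) exons 2 to 3: gagagactgagggagGACGAGCTGGATGAG
A430107O13Rik (Cped1) exons 11 to 15: tgcggctttgtacaaCTCTTCCCGTCCAGT
A830093I24Rik (Fam228b) exons 3 to 5: cccaattttctgaagGCTTTAGCTAAAGAA
6820408C15Rik exons 2 to 6: cagagtatcctcgggGAAGCAAAGTCGGGA
2010111I01Rik (Aopep) exons 3 to 4: tctgggaatggccagGATACATGAGCTGGC

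The ends of the member circles were exon ends of the annotation. All 903 started and ended at annotated exon boundaries (GENCODE M21), and 901 were flanked by the AG acceptor and GT donor dinucleotides, the remaining 2 by a GC donor. Of the other circRNA 99.9% had both ends annotated and 99.6% had the AG and GT dinucleotides, so neither trait is particular to the members. How far the typing of junctions as circRNA required annotated ends was not tested, so no conclusion about the RNA is drawn. Members spanned a median of 7899 bp of genome and 558 nt after splicing, beside 9242 bp and 593 nt for the other circRNA. Single-exon circles made up 54 members (5.98%) beside 3.65% of the others, and 54 members (5.98%) held no coding sequence beside 0.622% of the others.

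The 29 abundant members covered a median of 4467 bp of genome, beside 8285 bp for the other abundant circRNA, and 551 nt after splicing, beside 518.5 nt. Their genomic spans ran from 670 bp, exon 4 of 2210408I21Rik, to 32850 bp, exons 2 to 3 of 9930021J03Rik, and the circle with the most exons was that of 1110018G07Rik (Arel1, a ubiquitin ligase), with 7. Of the 29, 13 (44.8%) began at exon 2 of the transcript, beside 37.5% of the other abundant circRNA. The annotated start codon lay in 12 (41.4%), beside 26.6%. Within 1000 bases on both sides, an inverted sequence match was found for 3 of the 29 (10.3%) and for 17.1% of the other abundant circRNA. Matches of at least 100 bases were found for 1 of the 29 (3.45%) and for 7.31% of the others. The longest was 122 bases at 73.0% identity around exons 3 to 4 of A930001N09Rik, the member with the most reads. The others were 30 bases at Gm608 and 17 bases at 1110018G07Rik, and whether any of them pair was not tested. These shares are descriptions and were not tested.

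A930001N09Rik (Crebrf, which encodes a repressor of the endoplasmic reticulum stress factor CREB3) gave the most member reads, spread over 10 circRNA. Its circle of exons 3 to 4 (chr17:26739543-26743131) had 77, 86 and 44 reads at 0-h and 86, 66 and 56 at 4-h post-hCG, which after normalisation was 448 ± 76.8 and 499 ± 40.6 CPM (SD, n = 3 per group). The circle of exons 2 to 4 (chr17:26736789-26743131), which ends at the same donor as the first sequence above, had 65, 58 and 27 reads at 0-h and 42, 30 and 45 at 4-h post-hCG. In both circles the libraries of the groups overlapped. Another Crebrf circle (chr17:26739543-26763448), which starts at the same acceptor as the first and runs on to exon 8, had 11, 24 and 10 reads at 0-h and 5, 9 and 1 at 4-h post-hCG. Every 0-h library was above every 4-h library for this circle. Of the 3, the exon 3 to 4 circle had 415 reads in all, the exon 2 to 4 circle 267 and the exon 3 to 8 circle 60.

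**Figure D1:**
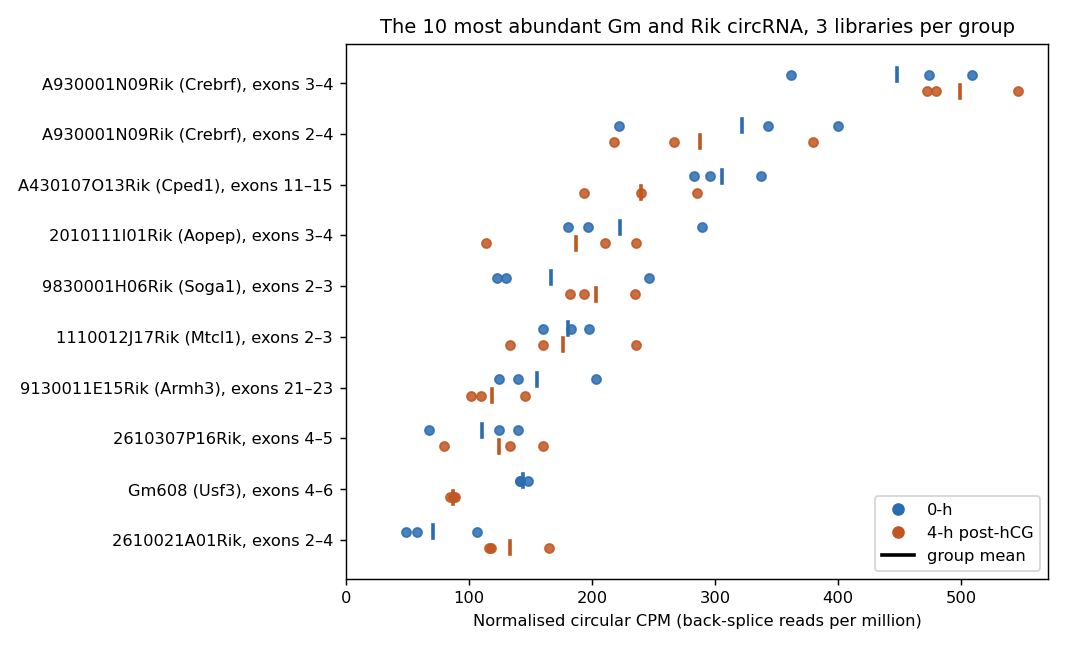
Normalised circular CPM (x axis, back-splice reads scaled to the library total at gene-assigned junctions) of the 10 members with the highest mean level, 1 row per circRNA, with 1 dot per library (0-h blue, 4-h post-hCG orange, 3 libraries each) and a bar at each group mean. The exon 3 to 4 circle of A930001N09Rik (Crebrf) lies highest, with group means of 448 and 499 CPM, and the groups stand apart for Gm608 (Usf3) and 2610021A01Rik.

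Next in order of level, A430107O13Rik (Cped1) circularised exons 11 to 15 (chr6:22132229-22145687), with 46, 50 and 41 reads at 0-h and 45, 33 and 23 at 4-h post-hCG. 2010111I01Rik (Aopep, aminopeptidase O) circularised exons 3 to 4 (chr13:63061035-63068285), with 32, 49 and 22 reads at 0-h and 18, 29 and 28 at 4-h post-hCG. The groups overlapped in both, and neither difference passed the test (log2 fold change -0.33 ± 0.32 and -0.28 ± 0.37, SE). 9130011E15Rik (Armh3, a regulator of phosphatidylinositol 4-kinase at the Golgi) gave 2 abundant circles that lie beside each other in the transcript, exons 21 to 23 (chr19:45885952-45892148; 33, 21 and 17 reads against 16, 20 and 13) and exons 16 to 20 (chr19:45921617-45940503; 11, 16 and 13 reads against 6, 6 and 4).

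A pair of members came from related genes and used the same exons. 9830001H06Rik (Soga1) and 1110012J17Rik (Mtcl1, microtubule crosslinking factor) encode proteins of 1 family, and in each the abundant circle joined exons 2 to 3. The exons had the same lengths in both genes, 225 and 159 nt, giving circles of 384 nt. Aligned position by position without gaps, 260 of the 384 bases were identical (67.7%), 72.9% in exon 2 and 60.4% in exon 3. The Soga1 circle (chr2:157053519-157060412) had 20, 22 and 30 reads at 0-h and 37, 25 and 23 at 4-h post-hCG, and the Mtcl1 circle (chr17:66436080-66438391) 26, 31 and 24 at 0-h and 21, 22 and 28 at 4-h post-hCG. The groups overlapped in both circles.

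Of the remaining 3 of the 10 highest members, 2610307P16Rik was the only lncRNA among the 29. Its circle of exons 4 to 5 (chr13:28668370-28669994) had 11, 21 and 17 reads at 0-h and 21, 11 and 19 at 4-h post-hCG, with overlapping groups. Gm608 (Usf3, of the upstream transcription factor family) circularised exons 4 to 6 (chr16:44200614-44205080). It had 144 ± 3.60 CPM at 0-h and 86.8 ± 2.32 CPM at 4-h post-hCG (SD, n = 3 per group). The circle held 101 reads in all, so these small SD rest on few reads per library. 2610021A01Rik, an entry not matched in RefSeq and so without a gene type here, circularised exons 2 to 4 (chr7:41611676-41613251). It had 71.1 ± 30.9 CPM at 0-h and 133 ± 27.7 CPM at 4-h post-hCG, from 89 reads in all. The groups did not overlap for Gm608 or 2610021A01Rik, yet neither passed the test across all abundant circRNA (adjusted p = 0.913 and 0.786, edgeR).

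The comparison of 4-h post-hCG with 0-h asks which circRNA change after the ovulatory signal. A circRNA was called at a fold change of 1.5 or more with an adjusted p up to 0.1. None of the 29 abundant members was called, against a background of 1.21% of the 1658 abundant circRNA tested (20 calls, 1.09% higher and 0.121% lower). An unadjusted p under 0.05 was found for 3 members in edgeR, beside 6.82% of all abundant circRNA, and DESeq2 called 0 with 2 under 0.05. The median log2 fold change was -0.16 over the members and 0.03 over all abundant circRNA. Groups did not overlap for 7 of the 29, where the share over all abundant circRNA was 11.5%. At that background a count of 0 among 29 is not a result about the members.

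The 3 lowest fitted values belonged to 6820408C15Rik, A930001N09Rik and 9130011E15Rik. The circle of exons 2 to 6 of 6820408C15Rik (chr2:152427469-152437643) had 15, 19 and 16 reads at 0-h and 0, 5 and 5 at 4-h post-hCG, or 112 ± 19.6 and 26.2 ± 22.8 CPM (SD, n = 3 per group). Its log2 fold change was -2.13 ± 0.68 (SE, adjusted p = 0.175, edgeR), and adjusted p ranged from 0.103 to 0.600 over the alternative settings. Without 4-h post-hCG replicate 1, the library with 0 reads, it was -1.49. The exon 3 to 8 circle of Crebrf followed at -1.43 ± 0.65 (adjusted p = 0.688; -2.16 without 4-h post-hCG replicate 2), and the exon 16 to 20 circle of Armh3 at -1.19 ± 0.65 (adjusted p = 0.767). For all 3, every 0-h library was above every 4-h library.

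The 3 highest were C130039O16Rik, 1700020O03Rik and 1300001I01Rik. C130039O16Rik (Mideas, a scaffold of a histone deacetylase complex) had 9, 2 and 1 reads at 0-h and 9, 0 and 16 at 4-h post-hCG in its exon 2 to 3 circle (chr12:84171460-84174423). The groups overlapped, and the log2 fold change of 1.25 ± 0.93 was 2.52 without 0-h replicate 1 and 0.15 without 4-h post-hCG replicate 3. 1700020O03Rik (Gpatch2l) had 7, 7 and 5 reads at 0-h and 13, 17 and 11 at 4-h post-hCG in the circle of exons 4 to 8 (chr12:86260577-86269061), a log2 fold change of 1.23 ± 0.60 (adjusted p = 0.705). A circle of the same gene that shares its donor but starts at exon 3 (chr12:86256868-86269061) had 14, 11 and 4 reads at 0-h and 7, 13 and 5 at 4-h post-hCG (log2 fold change -0.05 ± 0.65). 1300001I01Rik (Cluh, which binds mRNA of mitochondrial proteins) had 8, 4 and 9 reads at 0-h and 14, 10 and 16 at 4-h post-hCG in the circle of exons 2 to 3 (chr11:74656423-74657339; 1.03 ± 0.60, adjusted p = 0.824).

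**Figure D2:**
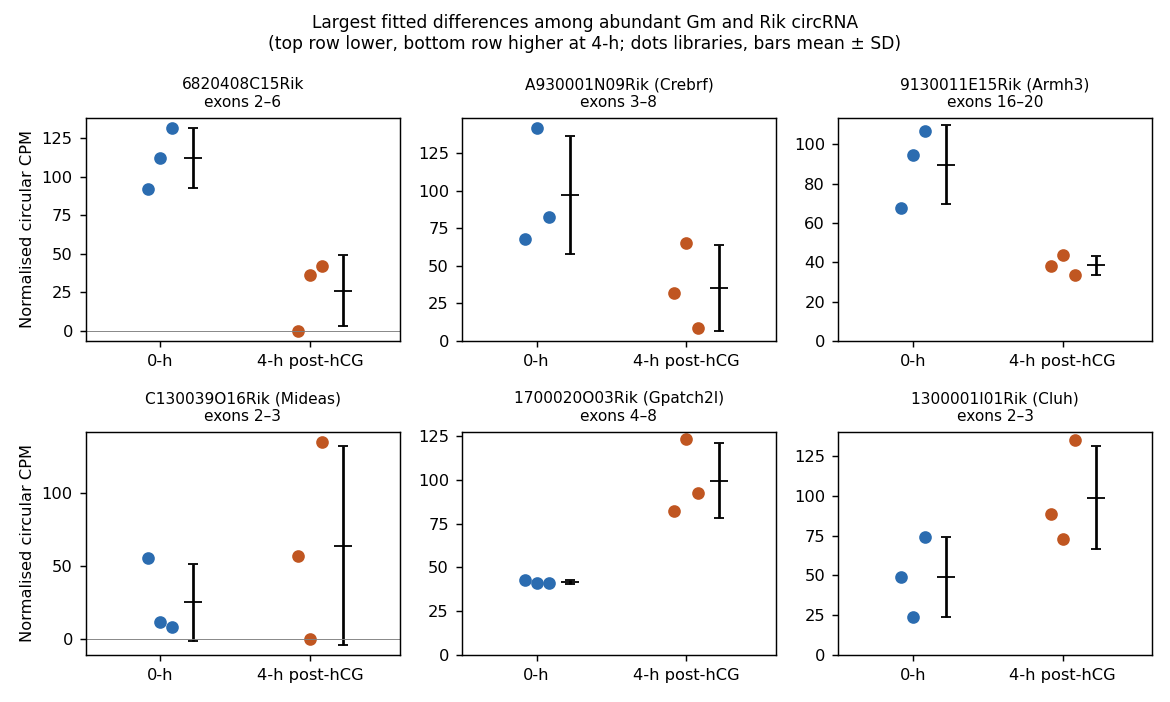
Normalised circular CPM (y axis) of the 3 members with the lowest (top row) and the 3 with the highest (bottom row) log2 fold change at 4-h post-hCG, with 1 dot per library and mean ± SD beside it (n = 3 per group). The groups stand apart for 6820408C15Rik, Crebrf, Armh3 and Gpatch2l and overlap for Mideas and Cluh, and none of the 6 was called.

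Adding the reads of all circRNA of an entry gave more depth per gene. Of the member entries 31 passed the count filter, and 1 was called, 6820408C15Rik, which was lower (15, 21 and 17 reads against 0, 5 and 5; log2 fold change -2.27 ± 0.68, adjusted p = 0.0954, edgeR). The background was 1.27% of 1580 entries, with 1.08% called higher and 0.19% lower. The call lies at the threshold. It was lost with DESeq2, without a count filter and when any of 5 of the 6 libraries was left out, with 4-h post-hCG replicate 3 the exception, and adjusted p ranged from 0.0657 to 0.475. Next by size of p came 9130011E15Rik (Armh3), with 75, 67 and 46 reads against 44, 40 and 29 over 30 circRNA (log2 fold change -0.66 ± 0.28, adjusted p = 0.517, edgeR).

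The entries with the most circRNA were large coding genes. Gm15800 (Hectd4, a HECT-type ubiquitin ligase) gave 36 circRNA with 150 reads, of which the most frequent held 18.7%. 9130011E15Rik (Armh3) gave 30, with 39.9% of 301 reads on 1 circle. 4930402H24Rik gave 22, 4930422G04Rik (Zgrf1, a DNA helicase) 21 and 5730419I09Rik (C2cd5) 19. For Gm15800 the summed reads were 27, 27 and 21 at 0-h and 27, 26 and 22 at 4-h post-hCG (log2 fold change 0.08 ± 0.37).

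The lncRNA entries held 51 circRNA and 363 reads, of which 2610307P16Rik gave 30.3%. B230206F22Rik (Ftx, a lncRNA of the X-inactivation centre) gave 49 reads over 5 circRNA, with 6, 28 and 9 at 0-h and 1, 4 and 1 at 4-h post-hCG. These reads were too few to pass the filter, and 28 of the 49 came from 1 library, so no test was made. The linear counts of Ftx at its highest junction were 40, 62 and 32 at 0-h and 30, 54 and 28 at 4-h post-hCG, with overlapping groups (log2 fold change -0.15 ± 0.29, adjusted p = 0.747).

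As a share of all circRNA reads, members held 1.44, 1.44 and 1.38% in the 0-h libraries and 1.31, 1.28 and 1.36% in the 4-h libraries. The groups did not overlap, the difference of means was -0.11 percentage points, and the exact two-sided permutation test gave p = 0.1, the smallest value 3 against 3 libraries allow. Set against all back-splice reads at gene-assigned junctions, the groups overlapped (0.783, 0.813 and 0.711% against 0.751, 0.722 and 0.762%; exact permutation p = 0.5).

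The linear RNA of the host genes was compared in the same way. For each entry the junction of the highest linear count stood for the gene, and 170 of the 239 member entries had enough counts. Of these 46 were called, 10 higher (5.88%) and 36 lower (21.2%), where the background was 13% of 6956 entries higher and 12.8% lower (25.8% in all). The 36 include both 1110012J17Rik (Mtcl1) and the joint entry Gm4705,1110012J17Rik, which are not independent of each other. The median log2 fold change was -0.20 over the members and -0.01 over all entries. The libraries of the groups did not overlap in 63 of the 170, where the share over all entries tested was 41.2%. In 36 of the called entries, 8 higher and 28 lower, the span of the junction that stood for the gene overlaps 1 annotated gene at most (GENCODE M21). Overlap elsewhere in the gene was not checked. For the rest of the called entries, reads of the neighbour could have been counted, since how strand was used is not known. Entries holding a Rik name gave 8 higher and 34 lower of 157, and entries holding a Gm name 2 higher and 6 lower of 20. The groups given here overlap, because an entry that joins several names counts in each group that any of its names fits. Of the 6 lower entries with a Gm name, only Gm129 and Gm15800 hold Gm names alone. Entries with a testis-library prefix gave 1 higher and 6 lower of 30, protein-coding entries 8 higher and 34 lower of 153, and lncRNA entries 2 higher and 2 lower of 14. Entries that have since been renamed gave 6 higher and 27 lower of 112, and those that kept their name 4 higher and 10 lower of 58.

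The highest of these was Gm12648, a lncRNA gene on chromosome 4 (chr4:94146440-94252637). Its linear counts were 9, 1 and 5 at 0-h and 204, 99 and 108 at 4-h post-hCG, a log2 fold change of 4.82 ± 0.39 (SE, adjusted p = 1.7e-09, edgeR). With 1 library left out, the log2 fold change of Gm12648 ranged from 4.27 to 5.55, the latter without 0-h replicate 1. Its 3 circRNA had 12, 0 and 1 reads at 0-h and 4, 1 and 7 at 4-h post-hCG, so 13 back-splice reads stood against 12 while the linear counts rose in every library. 1700025G04Rik, a protein-coding entry, followed with 23, 35 and 23 counts against 164, 79 and 85 (log2 fold change 2.11 ± 0.26), and its circRNA had 3 reads in each group.

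Further hosts that rose have known products. C230081A13Rik (Peak1, a pseudokinase of the actin cytoskeleton, whose span overlaps Peak1os) had 30, 28 and 27 linear counts at 0-h and 134, 102 and 93 at 4-h post-hCG (log2 fold change 2.05 ± 0.23). 1500003O03Rik (Chp1, a calcium-binding partner of sodium/proton exchangers) had 100, 112 and 105 against 272, 233 and 229 (1.32 ± 0.17). 2810403A07Rik (Khdc4, a KH-domain RNA-binding protein) had 159, 170 and 180 against 424, 417 and 298 (1.25 ± 0.15). The groups did not overlap in any of the 3, and adjusted p was at most 9.3e-05 for each under every alternative setting. Gm98 (Myrf, a membrane-bound transcription factor) rose from 28, 21 and 29 to 61, 38 and 36 counts (0.87 ± 0.30, adjusted p = 0.0341). The remaining named entries were 1810013L24Rik (0.90 ± 0.21) and E130307A14Rik (0.92 ± 0.32), a lncRNA whose span overlaps Traf3ip2. The calls of Gm98 and E130307A14Rik were lost without 0-h replicate 2 (adjusted p = 0.140 and 0.123) and without 4-h post-hCG replicate 1 (0.148 and 0.133). Circular reads of Khdc4 were 5, 5 and 6 at 0-h and 10, 15 and 10 at 4-h post-hCG, and those of Peak1 3, 4 and 0 against 17, 3 and 3, too few for a test.

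**Figure D3:**
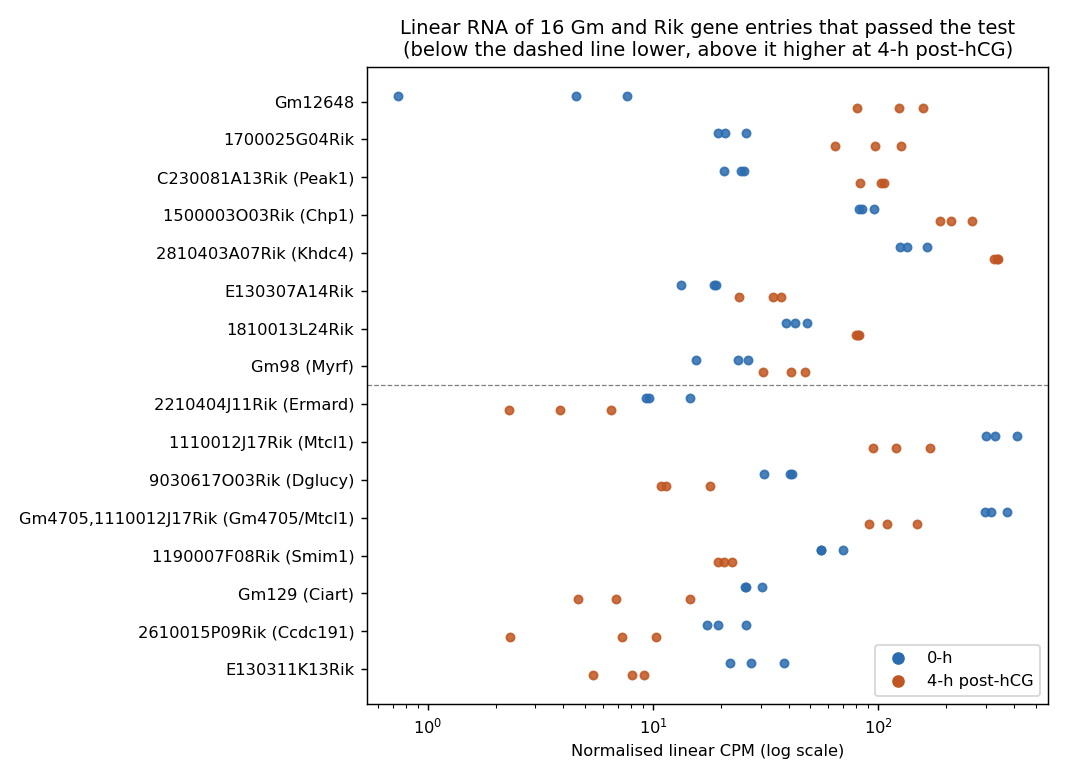
Normalised linear CPM on a log scale (x axis) of the 16 named gene entries whose linear RNA passed the test, 1 row per entry and 1 dot per library (0-h blue, 4-h post-hCG orange, 3 each), lower at 4-h post-hCG under the dashed line and higher above it. The widest gap is that of Gm12648, from a mean of 4.30 to 120 CPM, and the Mtcl1 rows fall from means of 349 and 329 CPM to 128 and 116 CPM.

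1110012J17Rik (Mtcl1) was among the hosts that fell. At the exon 2 to 3 junction its linear counts were 356, 448 and 456 at 0-h and 155, 210 and 83 at 4-h post-hCG, a log2 fold change of -1.43 ± 0.19 (adjusted p = 3.9e-06, edgeR). The joint entry Gm4705,1110012J17Rik shares an end of that junction and so is not an independent value (-1.49 ± 0.18). E130311K13Rik fell most, from 32, 52 and 24 to 7, 10 and 8 counts (-1.97 ± 0.39). Gm129 (Ciart, a circadian repressor of transcription) fell from 36, 35 and 28 to 6, 18 and 6 counts (-1.62 ± 0.41, and -2.27 without 4-h post-hCG replicate 2), and its span overlaps C920021L13Rik. Its 1 circRNA had 3, 3 and 1 reads at 0-h and none at 4-h post-hCG.

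The other named entries that fell were 2610015P09Rik (Ccdc191), 1190007F08Rik (Smim1, a small membrane protein), 9030617O03Rik (Dglucy, mitochondrial D-glutamate cyclase) and 2210404J11Rik (Ermard). Their log2 fold changes were -1.72 ± 0.46, -1.53 ± 0.26, -1.48 ± 0.32 and -1.32 ± 0.53 (SE). The span of Ccdc191 overlaps Qtrt2, and the call of Ermard, which rests on 2 to 16 counts per library, was lost under 6 of 11 alternatives. Gm15800 (Hectd4), which gave the most circRNA, fell from 197, 173 and 185 to 124, 134 and 88 linear counts (-0.60 ± 0.18, adjusted p = 0.0137).

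Some of these loci also carry microRNA hairpins, by RefSeq position. C430049B03Rik, a lncRNA on chromosome X, spans Mir503 and Mir322 on its strand, and its linear counts fell from 530, 756 and 574 to 306, 411 and 247 (log2 fold change -0.84 ± 0.16, adjusted p = 0.000268). It had 1 back-splice read in all. 2010111I01Rik (Aopep) spans Mir23b, Mir27b and Mir24-1 on its strand. Its span also overlaps Fancc, and its counts fell from 374, 499 and 419 to 132, 261 and 104 (-1.30 ± 0.20). The microRNA themselves were not measured.

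Over the 36 entries whose linear RNA was lower, circular reads numbered 829 at 0-h and 698 at 4-h post-hCG, and over the 10 whose linear RNA was higher, 55 and 102, of which 17 came from Peak1 in 1 library. These are reads as counted, and over all 239 entries they numbered 3514 and 3061. Fewer than 10 circular reads in all were found for 18 of the 36 and for 6 of the 10.

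At the junctions of the 29 abundant members themselves, the linear counts of 7 were called, 1 higher and 6 lower, against a background of 10.7% higher and 9.59% lower (20.3% in all). The rise was at the exon 2 to 3 junction of C130039O16Rik (Mideas), from 51, 34 and 55 to 122, 66 and 64 counts (log2 fold change 0.91 ± 0.24, adjusted p = 0.00374). The 6 that fell were Mtcl1 (-1.43 ± 0.18), both junctions of Armh3 (-0.98 ± 0.25 and -0.92 ± 0.24), 1600002H07Rik (Tedc2, a tubulin complex protein; -0.77 ± 0.30), Aopep (-0.75 ± 0.22) and Cped1 (-0.69 ± 0.26). The call of Tedc2 was lost without 0-h replicate 3 or 4-h post-hCG replicate 1 (adjusted p = 0.182 and 0.159), and that of Cped1 without replicate 3 of either group (0.104 and 0.133). None of the circles at these 7 junctions was called. In the comparison per gene entry, at the junction of the highest linear count, Mtcl1, Aopep and Cped1 were also called lower. Armh3, Tedc2 and Mideas were not called there, so their calls hold for these junctions and not for the gene.

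**Figure D4:**
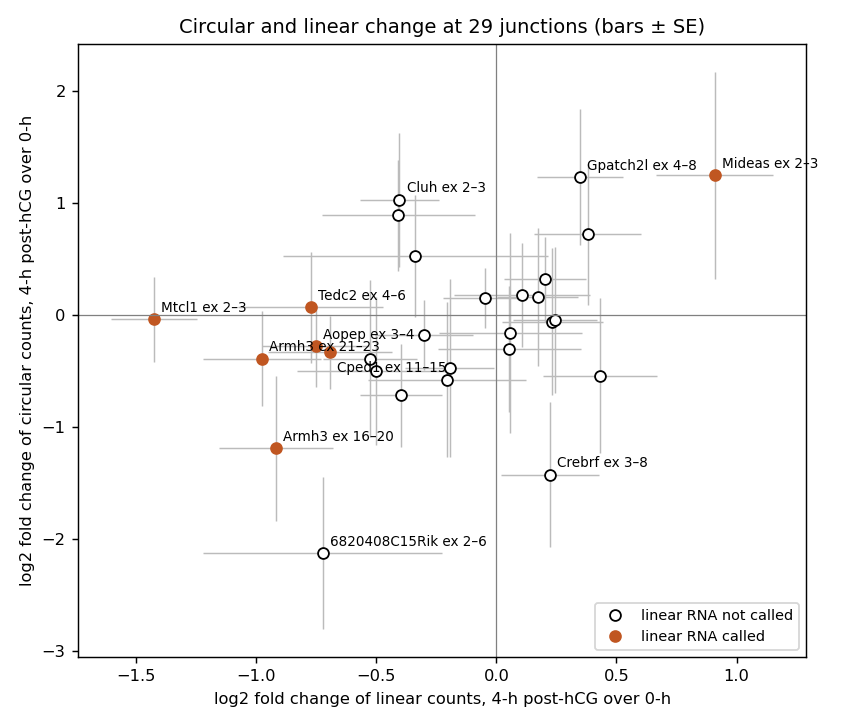
Log2 fold change of circular counts (y axis) against that of linear counts (x axis), 4-h post-hCG over 0-h, at the 29 abundant members, with bars of ± SE and filled points where the linear RNA was called. Mtcl1 lies at -1.43 on the linear axis and -0.04 on the circular axis, while 6820408C15Rik lies lowest at -2.13 on the circular axis.

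The study set each circRNA against its linear isoform at each time. Circular and linear columns were scaled together, so that 0 on the log2 scale is the middle of the 1658 abundant circRNA and not an equal number of molecules. On that scale 13 of the 29 members were called above and 6 below at 0-h (background 32.8% above and 34.6% below, 67.3% in all), and also 13 above and 6 below at 4-h post-hCG (background 32.9% and 35.3%, 68.2% in all). The members' median was 0.65 at 0-h and 0.23 at 4-h post-hCG, beside -0.05 and -0.03 over all. With reads taken as counted, without this scaling, 0 of the 29 were above and 26 below at 0-h, and 1 above and 24 below at 4-h post-hCG.

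Among the 29, 3 members had more circular reads than linear counts in the raw table. A430107O13Rik (Cped1) had 238 circular reads and 234 linear counts over the 6 libraries. Its circular reads of 46, 50 and 41 were below the linear counts of 49, 53 and 46 in each 0-h library, while 45, 33 and 23 were above 35, 32 and 19 in each 4-h library. A830093I24Rik (Fam228b) had 70 and 40 in all, and 6820408C15Rik 60 and 53. Fam228b had 12, 7 and 11 circular reads with 9, 5 and 9 linear counts at 0-h, and 14, 12 and 14 with 6, 6 and 5 at 4-h post-hCG, so circular reads were ahead in each of the 6 libraries. 6820408C15Rik had 15, 19 and 16 circular reads with 8, 15 and 11 linear counts at 0-h, and 0, 5 and 5 with 4, 10 and 5 at 4-h post-hCG. Circular reads were ahead in its 3 0-h libraries and in none at 4-h post-hCG.

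On the scaled ratio the highest at 0-h were 6820408C15Rik (3.35 ± 0.50), Fam228b (3.15 ± 0.53), Cped1 (2.69 ± 0.27) and 2610307P16Rik (1.98 ± 0.39). At 4-h post-hCG they were Fam228b (4.04 ± 0.52), Cped1 (3.07 ± 0.29), 2610021A01Rik (2.81 ± 0.40) and Tedc2 (2.39 ± 0.41). The lowest at 0-h were Cluh (-2.44 ± 0.35), 9930013L23Rik (Cemip, which depolymerises hyaluronan; -1.42 ± 0.37), Mtcl1 (-1.16 ± 0.27) and the exon 4 to 8 circle of Gpatch2l (-1.10 ± 0.38). At 4-h post-hCG the lowest were the exon 3 to 8 circle of Crebrf (-1.46 ± 0.47), Cemip (-1.27 ± 0.42), Arel1 (-1.05 ± 0.44) and Cluh (-0.97 ± 0.32). Errors are SE. At a limit of 50 CPM all 4 of the lowest at 4-h post-hCG and 3 of the 4 at 0-h lost their call, with Cluh at 0-h the exception. Without 4-h post-hCG replicate 1 the calls of Crebrf, Cemip and Arel1 at that time were lost (-1.01, -0.90 and -0.42), that of Arel1 also without replicate 3 (-0.90), and that of Cluh without replicate 2 (-0.68). Without replicate 2 the Crebrf circle stood at -2.35 and Arel1 at -2.24, and Cemip at 0-h lost its call without 0-h replicate 1 (-0.82). The Soga1 circle lay near 0 at both times (-0.18 ± 0.28 and -0.03 ± 0.28), while that of its relative Mtcl1 went from -1.16 to 0.23.

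**Figure D5:**
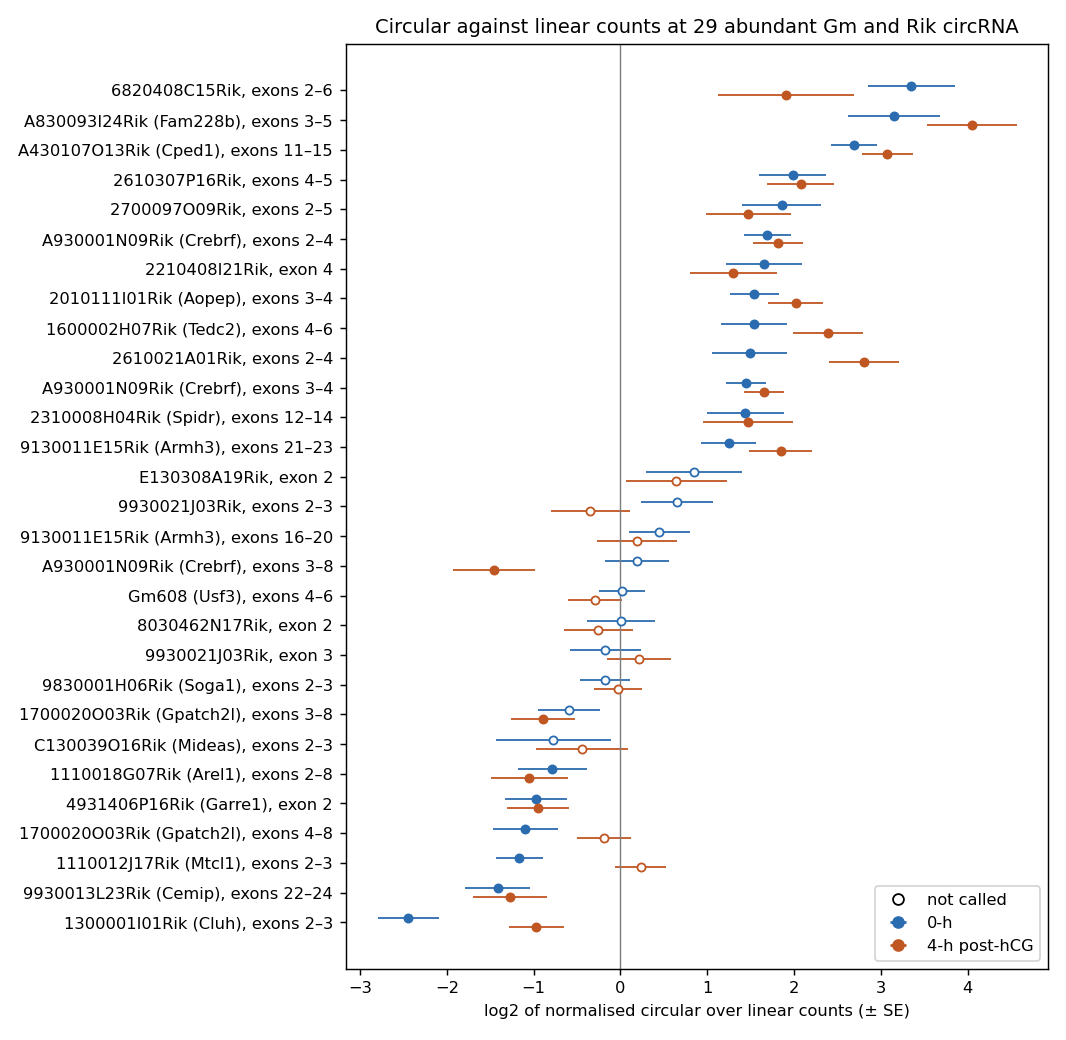
Log2 of jointly scaled circular over linear counts (x axis, ± SE) at the 29 abundant members in order of the 0-h value, 0-h in blue and 4-h post-hCG in orange, filled where the difference from 0 was called. 6820408C15Rik, Fam228b and Cped1 lie highest at 0-h and Cluh lowest at -2.44, and Mtcl1 moves from -1.16 to 0.23.

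Over all 903 members, 19 (2.1%) had more circular reads than linear counts, beside 0.328% of the other circRNA. Members also had fewer linear counts, with a median of 214 beside 471 for the other circRNA, while the median of circular reads was 2 beside 3. Most of the 19 rested on few reads. After the 3 above came 5033411D12Rik (Sugct), with 16 circular reads and 14 linear counts, Gm14661, a lncRNA, with 12 and 9, and Gm17673 (Heatr4) with 8 and 2. No linear count at all was found for 7 members (0.775%), beside 0.094% of the other circRNA.

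The change of the ratio between the times was tested as an interaction. One of the 29 members was called, against a background of 2.53% (0.965% higher and 1.57% lower). In 1110012J17Rik (Mtcl1) the ratio of circular to linear counts was higher at 4-h post-hCG by 1.40 ± 0.40 on the log2 scale (SE, adjusted p = 0.0694, edgeR). Circular reads were 6.43% of the linear counts before hCG and 15.8% after it, with the linear counts lower in every 4-h library and the circular reads overlapping between the groups. The call was lost with a lower abundance limit, with mouse as a block and when any of the 3 0-h libraries or 4-h post-hCG replicate 3 was left out, and the adjusted p ranged from 0.0183 to 0.424. An unadjusted p under 0.05 without a call was found for 3 more members, where 12.1% of all abundant circRNA had such a p. These were Cluh (1.48 ± 0.51, adjusted p = 0.162), the exon 3 to 8 circle of Crebrf (-1.65 ± 0.61, adjusted p = 0.181) and 2610021A01Rik (1.32 ± 0.57, adjusted p = 0.299).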

How the data were processed

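Total stranded RNA of 6 libraries (3 per time, 1 mouse each) was processed by the authors with FastQC, cutadapt, TopHat with TopHat-Fusion and CIRCexplorer on GRCm38. The deposited counts are raw back-splice reads and raw linear counts per junction; the making of linear counts is not stated in the labels or the methods, and their size fits reads summed over the ends of each junction. Columns of the authors' own fold changes and p-values were not used.

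Members were found by name, and members and gene lists were chosen with earlier results of these data known. Tests were edgeR 4.0.16 quasi-likelihood fits (R 4.3.3, TMM, Benjamini-Hochberg) over all abundant circRNA or all gene entries that passed edgeR's count filter, with DESeq2 1.42.0 as an alternative, and scripts were tested on simulated data. Calls needed a fold change of 1.5 or more with adjusted p up to 0.1. Circular library size was the sum of back-splice reads at gene-assigned junctions. Shares were compared by an exact permutation test. Circular against linear used 12 columns scaled together. For comparisons of the times within circular or within linear counts, p-values measure the spread between these mice. The main fits over 12 columns had no term for mouse and took both kinds of count from the same animal as independent. Their p-values and SE, including those of the ratio change, therefore do not measure the spread between mice alone.

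Named were the 10 highest members by CPM, members called in a time comparison (at most 10 per direction), the 4 furthest each way for circular against linear, the 3 largest changes each way, the 5 entries with most circRNA, the 8 called entries each way with the largest linear change, and the longest, shortest and most exon-rich abundant circles. Linear values of Ftx, Hectd4, Aopep and C430049B03Rik, circular reads of the linear hosts, the Soga1 ratio and identity, the exon 3 to 8 circle of Gpatch2l, Sugct, Gm14661, Heatr4 and Gm53 were added after their values were seen. Names and types came from RefSeq, exons from GENCODE M21.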

Additional observations from a re-analysis of the deposited data

Results flagged for a closer look

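In 1110012J17Rik (Mtcl1) the circular to linear ratio differed between the times by 1.40 on the log2 scale, by the interaction test given above (adjusted p = 0.0694). Each mouse gave both a circular and a linear column, and with mouse as a block the call was lost (adjusted p = 0.103), as under 6 of 11 alternatives in all. Back-splice junctions without a circRNA type also named Gm and Rik genes. There were 5999 such junctions with 16258 reads, none of them used above, and 3 ciRNA, which are intronic circles, with 6 reads. One untyped junction, in Gm53 on chromosome 11 (chr11:96262812-96264845), held 2250 reads, more than any member, with 432, 413 and 524 at 0-h and 269, 105 and 507 at 4-h post-hCG against 607 linear counts in all. Its groups overlapped, and the type is empty in the deposited table, so it was not analysed as a circRNA.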

How the results depend on the processing

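Of 499 values of named members under alternative settings, 452 kept their direction and their status as called or not called, 43 lost the call and 4 changed direction. The 452 include values of the 3 largest circRNA changes each way between the times, which were not called and had no call to lose. Among these, C130039O16Rik ranged from 0.15 to 2.52 and still counts as kept. The 4 changes of direction arose with reads taken as counted, for 2610307P16Rik (-0.82) and A430107O13Rik (-0.11) at 0-h and for 1600002H07Rik (-0.44) and 2610021A01Rik (-0.025) at 4-h post-hCG. That setting gave 0 members above and 26 below at 0-h, and 1 above and 24 below at 4-h post-hCG. With an abundance limit of 200 CPM (11 members tested) 7 were above and 3 below at 0-h, and 7 above and 2 below at 4-h post-hCG. With 50 CPM (48 members) 23 were above at 0-h, and 22 above and 2 below at 4-h post-hCG. Members called in the ratio change numbered 0 with 50 CPM and 0 with mouse as a block. Members called for summed circular counts numbered 0 with DESeq2 and 0 without a count filter. The causes of these differences were not tested.

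Leaving out 1 library at a time, called members ranged from 0 to 0 for circRNA between the times, 0 to 1 for summed counts, 8 to 12 higher and 23 to 38 lower for linear RNA per entry (23 without 0-h replicate 3 and 23 without 4-h post-hCG replicate 1), 1 to 1 higher and 4 to 7 lower for linear RNA at abundant circRNA, 12 to 15 above and 4 to 6 below at 0-h, 10 to 13 above and 2 to 6 below at 4-h post-hCG, and 0 to 3 for the ratio change. The difference in share of reads ranged from -0.13 to -0.09 percentage points and was -0.02 with the other denominator.

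Replicate numbers did not pair the mice, which differ between the times (correlations of deviations between -0.069 and 0.033 for equal numbers). The replicate block left the count of called members at 0 for circRNA, 1 for summed counts and 1 for the ratio change, and gave 9 higher and 32 lower for linear RNA per entry.

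The abundance limit stood at 6.60 to 9.19 reads per library, which limits the precision of most members. No setting gave a call among members between the times for single circRNA.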
